A study of Homo sapiens with 12 samples.

Results

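The acute phase proteins are plasma proteins that the liver secretes in changed amounts during inflammation, and 10 genes of this response and of the signal that drives it were followed here through a time course of insulin. The genes were chosen by name as rows of the merged count table. They are the 3 fibrinogen chains FGA, FGB and FGG, the plasma proteins HP, ORM1, CRP and SAA1, and the IL-6 signal genes IL6R, STAT3 and SOCS3. All 10 were among the 26364 genes listed, and 8 of them were among the 13852 genes that passed the filter on low counts and were tested. CRP and SAA1 did not pass.

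RNA-seq libraries of HepG2 cells, a human cell line grown out of a hepatocellular carcinoma, were made at 0, 5, 10, 30 and 240 min after insulin stimulation, with 2 replicates at each time. Cells were grown in EMEM with FBS. The titles give the times. The treatment text attached to the RNA-seq libraries gives 16 h in EMEM and then 3 nM insulin for 5 min for all 10, those at 0 min included, so the insulin dose and the starvation of each time rest on a text that does not tell the times apart. A chromatin immunoprecipitation with an antibody against the insulin receptor (IR) was made from the same cell line, with an input library that was not analysed here. The treatment text of both gives culture with insulin, a washout and then 3 nM insulin. The treatment texts of the RNA-seq and immunoprecipitation libraries appear exchanged, so which treatment belongs to which libraries is uncertain. All groups share this 1 tumour-derived line.

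In the liver, IL-6 binds its receptor, which is encoded by IL6R, and the pair engages the signalling chain gp130, encoded by IL6ST. JAK kinases bound to gp130 phosphorylate STAT3, which enters the nucleus and raises the genes of many acute phase proteins, often together with C/EBP factors and NF-kappaB. SOCS3 is itself raised by STAT3 and shuts the receptor complex off, so its RNA is widely read as a sign of recent STAT3 activity.

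The largest library held 45005769 counts on genes and the smallest 18347109. The counts of replicate libraries differed beyond sampling noise at each time (chi-square divided by its degrees of freedom, 2.75 to 6.13). The study's statistics section calls its RNA-seq samples biologically independent and says the experiment was done a single time. The labels do not name separate cultures, and p-values measure only the spread between these samples. The 8 hepatocyte markers summed to between 59832 and 74445 CPM (the count relative to a library size adjusted by TMM), with ALB, TTR and APOA1 among them. The 5 leukocyte markers summed to between 37.4 and 46.3 CPM, mostly from CD68, and PTPRC had 0 reads in every library. The 4 fibroblast or stellate markers summed to between 53.7 and 78.5 CPM and the 3 endothelial markers to between 2.43 and 4.21 CPM. In bulk RNA, fewer cells of one type and less RNA per cell cannot be told apart.

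The 250 bases before the start of each chain gene of fibrinogen are shown first, because these genes lie side by side on chromosome 4 and their RNAs moved together across libraries. Sequences are from RefSeq on GRCh38.p14 and read 5′ to 3′ on the strand of the gene, and they end at the base before the annotated start. Capitals mark matches to a STAT letter pattern, TTCNNNGAA, or to a C/EBP letter pattern, TTNNGNAA, searched on both strands. FGA lies on the minus strand at chr4:154590743-154590992, FGB on the plus strand at chr4:154562730-154562979 and FGG on the minus strand at chr4:154612657-154612906. On hg19, the build of the deposited files, the gene bodies span chr4:155504280-155511897 for FGA, chr4:155484132-155493915 for FGB and chr4:155525286-155533902 for FGG.
FGA: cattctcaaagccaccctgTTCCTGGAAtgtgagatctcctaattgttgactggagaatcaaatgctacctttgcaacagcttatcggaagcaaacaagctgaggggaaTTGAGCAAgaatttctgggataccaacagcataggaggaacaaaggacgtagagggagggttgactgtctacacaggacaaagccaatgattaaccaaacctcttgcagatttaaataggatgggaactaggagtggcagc
FGB: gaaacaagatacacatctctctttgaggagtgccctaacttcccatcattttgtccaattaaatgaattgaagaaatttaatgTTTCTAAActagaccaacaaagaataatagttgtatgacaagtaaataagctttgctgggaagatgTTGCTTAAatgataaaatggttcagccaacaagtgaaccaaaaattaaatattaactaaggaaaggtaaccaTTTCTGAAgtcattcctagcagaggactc
FGG: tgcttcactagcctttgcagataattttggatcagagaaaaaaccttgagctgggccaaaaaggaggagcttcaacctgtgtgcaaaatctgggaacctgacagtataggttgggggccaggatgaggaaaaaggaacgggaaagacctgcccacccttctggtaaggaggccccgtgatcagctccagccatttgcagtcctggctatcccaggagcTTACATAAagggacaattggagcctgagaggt
Within the windows searched, the only STAT match among the 8 members with a promoter entry is the first capital run of FGA. It begins at position -231 from the FGA start. FGB carries 3 C/EBP matches and FGA and FGG 1 each. Of 35116 RefSeq promoter windows, 6.57% held a STAT match in the same 250 bases and 33.2% held a C/EBP match.

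The same stretch is given for the IL-6 signal genes because they are the members whose RNA fell. IL6R lies on the plus strand at chr1:154405093-154405342, STAT3 on the minus strand at chr17:42388443-42388692 and SOCS3 on the minus strand at chr17:78360926-78361175. Their bodies span chr1:154377669-154441926, chr17:40465343-40540513 and chr17:76352858-76356160 on hg19.
IL6R: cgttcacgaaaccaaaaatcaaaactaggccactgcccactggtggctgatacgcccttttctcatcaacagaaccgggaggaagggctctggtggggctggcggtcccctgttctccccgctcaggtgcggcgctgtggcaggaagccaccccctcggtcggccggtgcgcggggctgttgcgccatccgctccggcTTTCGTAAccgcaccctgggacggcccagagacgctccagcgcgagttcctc
STAT3: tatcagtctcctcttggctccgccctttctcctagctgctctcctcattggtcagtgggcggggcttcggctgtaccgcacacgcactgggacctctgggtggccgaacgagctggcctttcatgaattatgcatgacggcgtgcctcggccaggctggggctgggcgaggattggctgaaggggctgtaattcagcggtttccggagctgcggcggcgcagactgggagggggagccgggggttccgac
SOCS3: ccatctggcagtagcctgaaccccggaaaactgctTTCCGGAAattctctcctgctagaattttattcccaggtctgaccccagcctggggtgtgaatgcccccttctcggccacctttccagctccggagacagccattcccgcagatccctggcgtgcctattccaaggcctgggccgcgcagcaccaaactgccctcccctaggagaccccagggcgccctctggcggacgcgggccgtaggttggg
SOCS3 and IL6R each held 1 C/EBP match here and STAT3 held neither pattern. SOCS3 and FGB each have 2 windows in the table, of which 1 is shown. The other SOCS3 window, at chr17:78359668-78359917, held 0 STAT or C/EBP matches, and that of FGB held the same 3 C/EBP matches. In all, 7 of the 8 members with an entry held a C/EBP match in at least 1 window, against 33.2% of all windows. A further pattern for NF-kappaB, of 3 G, 5 bases of any kind and 2 C, was found in 5 of them, against 54.4% of all windows. The member counts are per gene over up to 2 windows and the shares are per window, so they are not in like units. In ORM1 an NF-kappaB match overlapped a C/EBP match. These are matches of letters in one window and not sites of binding. The windows follow RefSeq starts on GRCh38, which were not compared with the gene starts on hg19. A match outside the windows, such as near another start of SOCS3, would not be seen here.

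Fibrinogen was the most abundant of these transcripts. FGG and FGA encode the gamma and alpha chains of the clotting protein, and FGB its beta chain. On the scale of level per length (TPM, as deposited), FGG ranged from 1737 to 2781 across the 10 libraries and ranked between 25 and 57 of the 26364 genes. FGA ranged from 1101 to 1840 TPM. The ranges of FGG and FGA overlapped, although FGG was the higher of the pair within each library. ORM1, the acid glycoprotein orosomucoid, followed at 357 to 420 TPM, above FGB at 174 to 295 TPM, without overlap. HP, the haemoglobin-binding haptoglobin, ranged from 102 to 152 TPM and overlapped STAT3 at 80.4 to 123 TPM. IL6R was lower, at 10.3 to 18.3 TPM, and SOCS3 lay at 0.512 to 1.73 TPM. CRP and SAA1 closed the order.

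CRP and SAA1, the members that rise most in human plasma during an acute phase response, were at or near the limit of detection. CRP, the pentraxin C-reactive protein (chr1:159682079-159684379 on hg19, minus strand), had 0 reads in all 10 libraries. A count of 0 allows up to 3 reads, which is 0.0674 CPM in the deepest library and 0.158 CPM in the shallowest. SAA1, an apolipoprotein of acute phase HDL (chr11:18287808-18291523, plus strand), had 0 and 4 reads at 0 min, then 3 and 1 (5 min), 2 and 1 (10 min), 3 and 1 (30 min) and 1 and 2 (240 min). No SAA1 count stood out at any time, and its 18 reads in all allow no comparison. Its close copy SAA2 had 64 reads over the 10 libraries and was not tested either. Reads that fit both copies could be lost or split in counting. Such limits cover counting error only.

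FGA was measured at 1221 and 1588 CPM at 0 min, then at 1375 and 1736 (5 min), 1127 and 1036 (10 min), 1396 and 1195 (30 min) and 1425 and 1143 (240 min). Both 10 min libraries lay below both at 0 min, and at the other times the libraries overlapped those at 0 min. At 10 min, 37.2% of all tested genes had libraries that did not overlap those at 0 min. FGB was measured at 275 and 360.0 CPM at 0 min, then at 337 and 426 (5 min), 278 and 255 (10 min), 366 and 312 (30 min) and 423 and 310.3 (240 min). At every time the FGB libraries overlapped those at 0 min. FGG was measured at 1365 and 1635 CPM at 0 min, then at 1472 and 1875 (5 min), 1291 and 1199 (10 min), 1556 and 1337 (30 min) and 1639.8 and 1309 (240 min). FGG again had its lowest pair at 10 min, below both 0 min libraries.

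The 3 chains moved together from library to library. Replicate 2 was the higher one for FGA at 0 and 5 min and replicate 1 was at 10, 30 and 240 min, and FGB, FGG and HP had this same order at 5 of 5 times. Among all other tested genes, 707 of 13851 did (5.1%). Of the hepatocyte markers, 5 of 8 did, namely TTR, APOA1, APOB, TF and HNF4A. ORM1 and STAT3 matched FGA at 4 of 5 times, SOCS3 at 2 and IL6R at 0. The gap between replicates was wide for fibrinogen, with an SD of 260 CPM around a mean of 1405 CPM for FGA at 0 min (n = 2), so that small changes with time could not be told from it.

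HP (chr16:72088508-72094955 on hg19, plus strand) was measured at 32.2 and 51.1 CPM at 0 min, then at 45.6 and 50.3 (5 min), 37.1 and 35.9 (10 min), 41.6 and 40.4 (30 min) and 43.5 and 40.02 (240 min). The 0 min libraries were the lowest and the highest of all 10, and the later times all lay between them. ORM1 (chr9:117085303-117088759, plus strand) was measured at 79.5 and 80.8 CPM at 0 min, then at 84.3 and 86.3 (5 min), 79.5 and 84.5 (10 min), 84.9 and 83.0 (30 min) and 92.0 and 79.5 (240 min). ORM1 stayed within 79.5 to 92.0 CPM throughout, and both its libraries at 5 min and at 30 min lay above those at 0 min. Of all tested genes, 48.4% had libraries that did not overlap those at 0 min at 5 min and 38.3% at 30 min.

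IL6R, the receptor chain that binds IL-6, was measured at 44.0 and 41.4 CPM at 0 min, then at 41.6 and 36.6 (5 min), 37.7 and 41.7 (10 min), 35.8 and 38.5 (30 min) and 23.9 and 30.03 (240 min). Both 240 min libraries lay below all 8 others. STAT3, the transcription factor of the pathway, was measured at 233 and 245 CPM at 0 min, then at 237 and 229 (5 min), 234 and 232 (10 min), 237 and 236 (30 min) and 159.8 and 159 (240 min). STAT3 stayed within 229 to 245 CPM up to 30 min and both 240 min libraries lay below all others. SOCS3, the feedback inhibitor, was measured at 1.72 and 1.71 CPM at 0 min, then at 1.82 and 1.24 (5 min), 1.72 and 1.32 (10 min), 1.90 and 1.85 (30 min) and 0.560 and 0.789 (240 min). Its 240 min libraries held 14 and 15 reads against 37 and 76 at 0 min, and again lay below all 8 others.

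**Figure D1:**
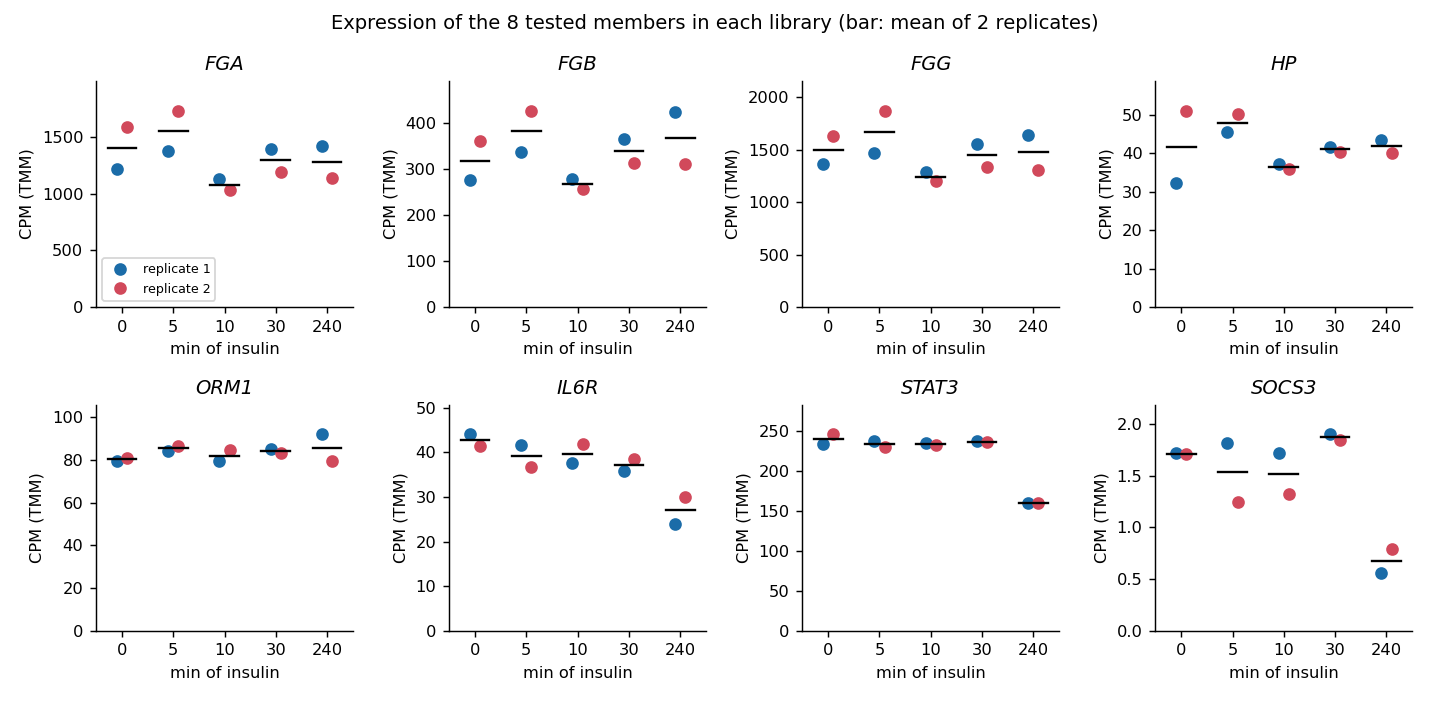
Level of the 8 tested genes in each library, in CPM after TMM scaling, against min of insulin. Points are single libraries coloured by replicate, the bar is the mean of the 2 replicates, and each vertical axis starts at 0. IL6R, STAT3 and SOCS3 drop at 240 min below all other libraries, with STAT3 near 159 CPM, while the fibrinogen chains spread widely within a time.

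The comparison with 0 min asks which of these RNAs had changed by each time after insulin. The test was the quasi-likelihood test of edgeR, and p-values were adjusted by Benjamini-Hochberg over the 13852 genes, at a threshold of 0.05. At 5 min, 0 of the 8 members passed, as did 0% of all genes, and 0 members had an unadjusted p-value under 0.05, against 14.3% of all genes. DESeq2 also called 0 genes at this time. Their log2 fold changes ran from -0.14 for SOCS3 to 0.26 for FGB. The 95% interval for FGB, -0.0047 to 0.52, was the one that came nearest to leaving 0.

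At 10 min, 0 of the 8 members passed, against 0.137% of all genes. FGA stood 0.38 lower on the log2 scale (log2 fold change -0.38, SE 0.12, adjusted p = 0.566), FGG stood at -0.27 (SE 0.11, adjusted p = 0.822) and FGB at -0.26 (adjusted p = 0.951), all by edgeR with Benjamini-Hochberg adjustment. Without replicate 2 of 0 min these values were -0.18 for FGA, -0.13 for FGG and -0.043 for FGB, and without replicate 1 of 0 min -0.55, -0.39 and -0.43. FGA and FGG were the 2 members with an unadjusted p-value under 0.05, against 5.13% of all genes. With no filter on low counts the fold changes were alike and all 3 chains passed at 10 min, with adjusted p-values of 9.79e-12 for FGA, 0.000752 for FGB and 1.5e-05 for FGG. That fit also called FGB higher at 5 min (adjusted p = 0.000686) and at 240 min (adjusted p = 0.000385) and FGA lower at 240 min (adjusted p = 0.0306), so a call on fibrinogen depended on the filter.

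At 30 min, 0 of the 8 members passed, against 0.332% of all genes, and the changes ran from -0.20 for IL6R to 0.13 for SOCS3. IL6R was the 1 member with an unadjusted p-value under 0.05 there (adjusted p = 0.541 by edgeR), against 8.12% of all genes.

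At 240 min the signal genes IL6R, STAT3 and SOCS3 fell while none of the 5 secreted members that were tested passed the threshold. IL6R fell from 42.7 ± 1.86 to 27.0 ± 4.33 CPM (SD, n = 2 each), a log2 fold change of -0.67 (SE 0.090, 95% interval -0.86 to -0.48, edgeR adjusted p = 7.91e-06). STAT3 fell from 239 ± 8.49 to 159 ± 0.444 CPM, a log2 fold change of -0.59 (SE 0.047, 95% interval -0.68 to -0.49, edgeR adjusted p = 1.4e-08). SOCS3 fell from 1.71 ± 0.00728 to 0.674 ± 0.162 CPM, a log2 fold change of -1.37 (SE 0.29, 95% interval -1.98 to -0.75, edgeR adjusted p = 0.000959). These are falls of 37.2% for IL6R, 33.4% for STAT3 and 61.2% for SOCS3.

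The 3 calls among 8 members stand against 41% of all genes called at this time, 20.6% higher and 20.4% lower, so the number of calls is near that of any genes. The size of the changes can be read against all genes too. Of the 13852 genes, 0.383% had a log2 fold change at or below that of SOCS3, 3.47% at or below that of IL6R and 4.82% at or below that of STAT3. Both 240 min libraries lay below the other 8 for 3 of 8 members and for 21.3% of all genes. The summed markers of fibroblasts or stellate cells were also lowest at 240 min, with 53.7 and 56.7 CPM. Most of this sum came from ACTA2, which was called lower at 240 min against 0 min, as was PDGFRB. COL1A1 and COL3A1, both at low levels, instead had a higher mean CPM at 240 min than at 0 min. All libraries came from the HepG2 line. Any relation of these markers to the falls of IL6R, STAT3 and SOCS3 was not tested.

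For the secreted members, the intervals at 240 min bound the change that could have gone unseen. FGA stood at -0.13 (95% interval -0.37 to 0.11), FGB at 0.21 (-0.058 to 0.47), FGG at -0.025 (-0.25 to 0.20), HP at -0.032 (-0.29 to 0.23) and ORM1 at 0.10 (-0.025 to 0.23) on the log2 scale, with edgeR adjusted p-values from 0.193 to 0.875. A single library decided some of these values. HP stood at -0.29 without replicate 1 of 0 min, which passed the threshold, and at 0.38 without replicate 2 of 0 min. HP also passed at 5 min without replicate 2 of 0 min (0.57, adjusted p = 0.0222) and at 10 min without replicate 1 of 0 min (-0.49, adjusted p = 0.00538). FGB rose by 0.42 without replicate 2 of 0 min and by 0.41 without replicate 2 of 240 min, both past the threshold, and stood at -0.039 without replicate 1 of 240 min. ORM1 rose by 0.20 without replicate 2 of 240 min, also past the threshold, and stood at -0.015 without replicate 1 of 240 min.

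**Figure D2:**
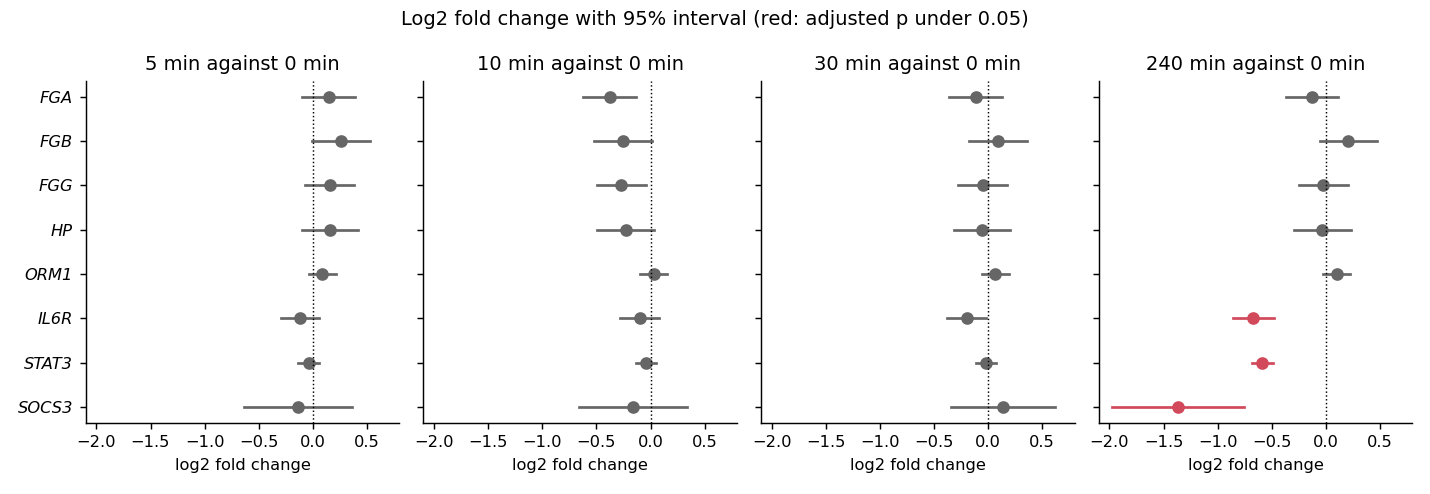
Log2 fold change of the 8 tested genes at 5, 10, 30 and 240 min against 0 min, with 95% intervals from edgeR's quasi-likelihood fit. Red marks an adjusted p under 0.05. The 3 red points, for IL6R, STAT3 and SOCS3, are all at 240 min and below 0.

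The falls were also tested between 240 and 30 min, which leaves the 0 min libraries out of the contrast but shares the 240 min libraries with it. Again 3 of 8 members were lower and 0 higher, against 38.2% of all genes called in either direction and 18.4% lower. SOCS3 was lower by a log2 fold change of -1.50 (SE 0.30, edgeR adjusted p = 0.000528), STAT3 by -0.57 (SE 0.047, adjusted p = 2.47e-08) and IL6R by -0.47 (SE 0.093, adjusted p = 0.000477). The effect at 240 min thus differed from that at 30 min for these genes. IL6R moved to -0.31 without replicate 1 of 240 min and still passed. None of the other 5 passed, and their values ran from -0.013 for FGA to 0.12 for FGB.

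Scaling the libraries by their ERCC spike-ins in place of TMM kept the falls at 240 min against 0 min, at -0.79 for IL6R (adjusted p = 0.00204), -0.70 for STAT3 (adjusted p = 0.00613) and -1.48 for SOCS3 (adjusted p = 0.00188). Under this scaling the median of all genes stood at -0.33 at 10 min, -0.13 at 30 min and -0.12 at 240 min. The spike-in share at 10 min was 1.73% in replicate 1 and 2.36% in replicate 2, the highest of all libraries. The 10 min value thus leans on 1 library. With ERCC scaling 331 genes were higher and 728 lower at 240 min, against 2847 and 2829 with TMM. For 240 min against 30 min this scaling gave 573 higher and 344 lower, against 2743 and 2554. IL6R was then at -0.46 against 30 min and no longer passed (adjusted p = 0.153), and ORM1 turned to -0.014 at 240 min. SOCS3 stood at -0.67 at 240 min when TPM values plus a pseudocount of 1 were used, which is as large as its own level, and still passed there and under every other alternative run, with adjusted p-values up to 0.0342.

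Because the chains are built into one protein in equal numbers, their RNAs were also set against each other within a library, a comparison chosen after the values were seen. The ratio of FGB to FGA in TPM was 0.144 and 0.145 at 0 min, then 0.157 and 0.160 (5 min), 0.159 and 0.158 (10 min), 0.168 and 0.166 (30 min) and 0.192 and 0.178 (240 min). All 8 libraries with insulin lay above both at 0 min, and both at 240 min lay above all others. How many other pairs of genes have a ratio in this order was not counted, so the order cannot be called particular to fibrinogen. The mean was 0.144 ± 0.000184 at 0 min and 0.185 ± 0.00991 at 240 min (SD, n = 2), 1.28 times as high, and 1.26 times when counts were used. With 2 libraries against 2, an exact permutation test cannot go below p = 0.333. The ratio of FGG to FGA was 1.46 ± 0.0911 at 0 min and 1.59 ± 0.00213 at 240 min.

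**Figure D3:**
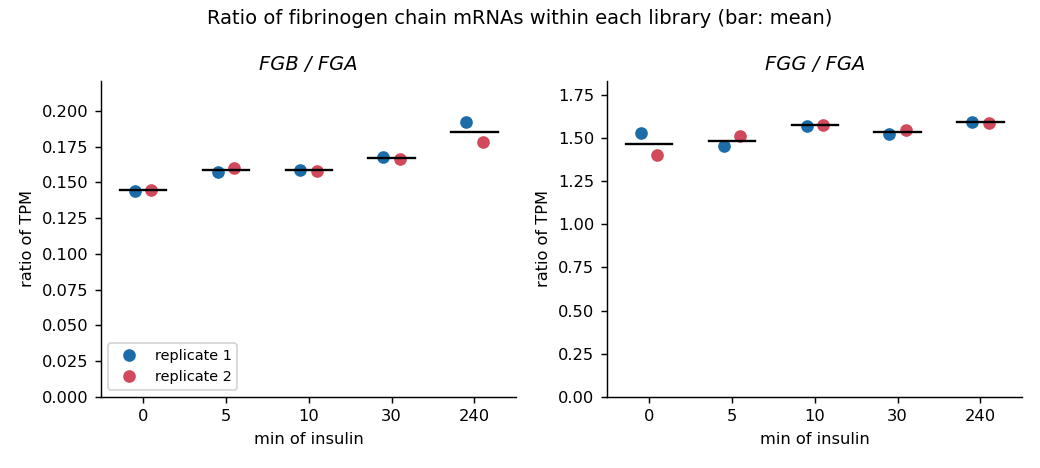
Ratio of FGB to FGA (left) and of FGG to FGA (right) within each library, from TPM, against min of insulin. Points are libraries coloured by replicate and bars are means of 2. The FGB to FGA ratio is tight within a time and is highest at 240 min, at 0.192 and 0.178.

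Genes that could share reads with members were looked at as well. ORM2, the near copy of ORM1, went from 58.9 to 52.6 CPM at 240 min (log2 fold change -0.16, edgeR adjusted p = 0.0621), against 0.10 for ORM1. In TPM the ORM2 value was 0.011, so its direction depended on the quantification. HPR, the copy of HP, stood at -0.098 (adjusted p = 0.538). SAA4, the constitutive member of the SAA family, fell by 0.55 on the log2 scale (adjusted p = 0.0479), a call that was lost in 17 of the alternatives. Its counts were low, at 2.29 CPM at 0 min and 1.52 CPM at 240 min. In TPM it stood at 120 and 112, so the quantifications differed widely in the level of SAA4. For these families the split of reads between copies is uncertain.

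The wider pathway was read from 5 lists of genes, each described by its counts beside the 41% of all genes called at 240 min and a median of all genes of -0.0026. Of 30 genes listed as positive acute phase proteins, 24 were tested, with 2 higher and 9 lower and a median log2 fold change of -0.15. The list is wider than the class, since it holds SAA4, described above as constitutive. Whether each other listed gene, A2M included, belongs to the class in humans was not tested. None of the 9 lower calls held without replicate 2 of 0 min, where the list had 4 higher and 0 lower and a median of -0.062, nor by limma on TPM, and DESeq2 gave 3 lower. Without replicate 2 of 240 min the list had 4 higher and 5 lower. Higher were MBL2, the mannose-binding lectin, at 0.71 (9.22 ± 0.642 to 15.2 ± 0.620 CPM, n = 2), and CPN2, a subunit of carboxypeptidase N, at 0.28. Lower were SAA4, LCN2 at -0.55, SERPINA3, the antichymotrypsin, at -0.42, A2M, the protease trap macroglobulin, at -0.29 and 5 others. The 5 tested members on this list, the fibrinogen chains, HP and ORM1, were among its 13 genes without a call.

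Negative acute phase proteins are those whose plasma level drops in inflammation. Of 10 listed, 9 were tested, with 0 higher and 2 lower and a median of -0.10. The fetuin gene AHSG fell by 0.40 on the log2 scale, from 2959 ± 199 to 2248 ± 195 CPM (n = 2), and SERPINA6, which encodes the cortisol carrier, fell by 0.25. ALB, encoding albumin, stood at -0.29 (edgeR adjusted p = 0.0503), at -0.52 without replicate 1 of 240 min, which passed, and at -0.10 without replicate 2 of 240 min. ALB also passed with RLE scaling, no filter on low counts, a replicate block, only the times compared, and without any one library of 5 or 30 min. Without replicate 1 of 240 min the list had 4 lower, and without replicate 2 of 240 min 1 higher and 1 lower.

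Of 22 receptor and JAK-STAT genes of the IL-6 family, 19 were tested, with 3 higher and 7 lower and a median of -0.093. Besides IL6R and STAT3, the shared signal chain IL6ST fell from 507 ± 14.9 to 417 ± 5.42 CPM (log2 fold change -0.28, edgeR adjusted p = 0.000156). OSMR, the oncostatin M receptor, fell by 0.51, TYK2 by 0.20, ADAM10, a protease that sheds IL6R from the cell surface, by 0.17 and JAK1 by 0.14 on the log2 scale. The JAK1 call (adjusted p = 0.0452) was lost in 15 of the alternatives. Higher were LIF, a cytokine of the same family, at 0.53, STAT5A at 0.49 and JAK2 at 0.44. IL6 itself had 1 read in the 10 libraries.

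All 19 STAT3 feedback and target genes were tested, with 8 higher and 4 lower and a median of 0.090. PIM1, a kinase gene raised by STAT factors, fell from 43.7 ± 2.71 to 15.8 ± 0.808 CPM (n = 2), a log2 fold change of -1.45 (SE 0.076, edgeR adjusted p = 6.02e-11), and BCL6 fell by 0.69 and BCL2L1 by 0.17. SOCS2 and CISH, which like SOCS3 are SOCS family inhibitors but respond chiefly to STAT5, rose by 1.40 and 0.57. FOS rose by 1.38 and JUNB by 0.61. SOCS2 rested on a wide pair at 240 min (2.35 ± 0.365 to 6.57 ± 2.90 CPM) and stood at 0.90 without replicate 2 of 240 min, while FOS stood at 0.76 without replicate 2 of 0 min.

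Of 16 transcription factors and upstream receptors of the acute phase response, all were tested, with 4 higher and 7 lower and a median of -0.14. CEBPA rose from 18.5 ± 0.524 to 40.4 ± 2.18 CPM (n = 2), a log2 fold change of 1.12 (SE 0.088, edgeR adjusted p = 1.31e-08). CEBPD, a C/EBP gene induced by IL-6, fell by 0.74, and CEBPB stood at -0.18 (adjusted p = 0.0763). NFKBIA, the inhibitor of NF-kappaB, rose by 0.50 and HNF4A by 0.30. IL1RAP fell by 0.49, NFKB2 by 0.37 and IL1R1 by 0.35, and IL1R1 stood at -0.19 without replicate 2 of 0 min and still passed. With ERCC scaling these 5 lists held 0, 0, 3, 5 and 3 calls in the order given, against 11, 2, 10, 12 and 11.

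Some of the list calls rested on a single library. Without replicate 2 of 0 min, SERPINA3 stood at -0.083, LCN2 at -0.30 and A2M at -0.21, and none of them passed. SERPINA3, LCN2 and CPN2 also lost their call without replicate 1 of 240 min, and A2M and LIF without replicate 2 of 240 min, where LIF stood at 0.25. SERPINA6 lost its call without replicate 1 of 0 min and without replicate 2 of 240 min, where it stood at -0.13. ADAM10 lost it without replicate 2 of 0 min and without replicate 1 of 240 min. TYK2 and BCL2L1 lost theirs without either replicate of 0 min and without replicate 1 of 240 min. The CISH call (adjusted p = 0.0391) was lost when any 1 of 5 libraries was left out, among them replicate 2 of 0 min, where CISH stood at 0.23. PIM1, BCL6, CEBPA, CEBPD, NFKBIA, HNF4A, IL6ST, OSMR, MBL2 and AHSG kept their calls without each library in turn. With ERCC scaling PIM1, BCL6, CEBPA, CEBPD and OSMR kept theirs too, while NFKBIA, HNF4A, IL6ST, MBL2 and AHSG lost theirs.

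**Figure D4:**
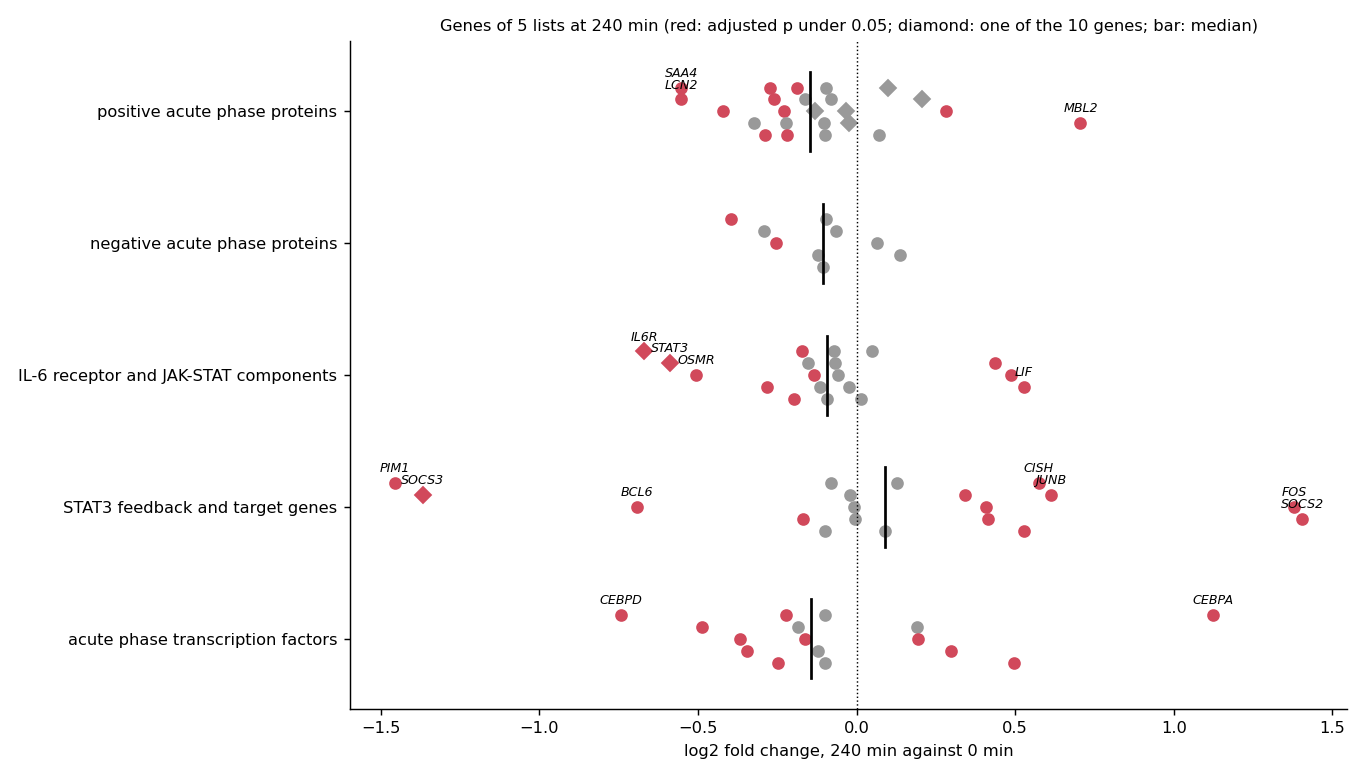
Log2 fold change at 240 min against 0 min of every tested gene in the 5 lists, with TMM scaling. Each point is a gene, diamonds are the genes followed here, red marks an adjusted p under 0.05 and the bar is the median of the list. IL6R, STAT3 and SOCS3 lie on the left of their lists, and the fibrinogen chains, HP and ORM1 are grey near 0.

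At 30 min IL6R, STAT3 and SOCS3 did not pass the threshold, and 2 genes of these lists did. They were 1 of 19 STAT3 feedback and target genes and 1 of 16 transcription factors and upstream receptors, against 0.332% of all genes. FOS was higher by 1.40 (edgeR adjusted p = 0.0218) and NFKBIA by 0.39 (adjusted p = 0.000336) on the log2 scale. FOS had a wide pair at 0 min (1.85 ± 0.995 CPM, n = 2). At 5 and 10 min, 0 genes of the lists passed, against 0% and 0.137% of all genes. Any link between these early calls and the later falls was not tested.

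The genes whose pattern over the 10 libraries was most like that of the 3 chains, among the 10385 whose mean reached 5 CPM, were C8A (Pearson r = 0.94), SERPINA4 (0.92), PANK1 (0.90), USP49 (0.88) and NT5E (0.88). C8A encodes a chain of the complement attack complex and SERPINA4 the inhibitor kallistatin, both made in liver. Those most like SOCS3 were TMCO3 and C12orf76 (each 0.98), TSC22D4, MEF2D and LAPTM4A (each 0.97). These genes differed in size of change, with TMCO3 at -0.27 and C12orf76 at -0.95 at 240 min. All points share libraries and their depth, and the values describe likeness only.

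The IR ChIP-seq library held 1971 peaks, and no replicate or input was used here. Within 5 kb of the gene body as deposited, 1 of the 10 genes had a peak, against 15.7% of all tested genes. It lies in an intron of IL6R at chr1:154390910-154391438 (hg19), 13.5 kb after the start, with a peak score of 29 and rank 1687 of 1971. A peak above the median score lay within 5 kb of 0 of the 10 members, against 8.78% of all tested genes. Within 20 kb, FGG and STAT3 also had one, 3 of 10 against 21.3% of all tested genes. FGG missed the 5 kb limit narrowly, with its peak 5.11 kb from the deposited body. In a reference annotation of the same build, FGG ends at chr4:155534119, which is 217 bases nearer the peak. By that annotation the FGG peak lies within 5 kb, so the count of members depended on the annotation. The share of all genes was not counted on it.

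The FGG peak lies between genes at chr4:155539011-155539320 (hg19), with its centre at -5.26 kb from the FGG start, with a score of 74 and rank 1032. It is shown because it is the nearest IR peak to all 3 fibrinogen genes. Its middle 300 bases at chr4:155539016-155539315 (GRCh37, plus strand) follow, with C/EBP letter matches in capitals.
FGG peak: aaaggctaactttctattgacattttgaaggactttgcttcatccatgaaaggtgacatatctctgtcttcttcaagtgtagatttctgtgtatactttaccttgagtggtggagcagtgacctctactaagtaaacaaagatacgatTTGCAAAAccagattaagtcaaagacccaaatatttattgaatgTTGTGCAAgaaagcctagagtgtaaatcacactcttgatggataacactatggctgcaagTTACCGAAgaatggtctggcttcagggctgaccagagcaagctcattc
This stretch held 3 C/EBP matches and 0 STAT or NF-kappaB matches. The STAT3 peak, at chr17:40559586-40559987, lies 19.1 kb from STAT3 inside the neighbouring gene CAVIN1, with a score of 115 and rank 759. The nearest peak to SOCS3 was 102 kb away, that to ORM1 242 kb and that to CRP 384 kb.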

How the data were processed

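Members and gene lists were chosen with earlier results of these data known. For the RNA-seq the authors trimmed single-end reads with Trim Galore 0.6.4, aligned them to hg19 with STAR 2.6.1d, marked duplicates and counted reads per gene as reverse-stranded with featureCounts 1.6.4 (versions from the submitters' processing notes). They deposited raw counts. Each library also has TPM values that the authors deposited from StringTie, scaled for length and library size. For the IR ChIP-seq the authors aligned reads with BWA 0.7.17-r1188, called peaks with MACS2 2.2.7.1 in 1 library, and deposited a score per peak, annotated by HOMER. The texts on treatment and extraction attached to the RNA-seq and ChIP-seq libraries appear exchanged. Treatments are given here as those texts state them, and the assays as the study's methods describe them.

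Here edgeR 4.0.16 (R 4.3.3) was run on the counts of the 10 libraries, using TMM scaling, filterByExpr by time, and 1 quasi-likelihood model of time with no replicate block. Each adjusted p-value is from this test with Benjamini-Hochberg adjustment over 13852 genes, two-sided, at 0.05, unless another tool is named. The 92 ERCC rows, with 1.59% to 2.36% of the counts, entered neither library sizes nor tests. Standard errors came from each fold change and its F statistic, and 95% intervals from these. No deposited column of another sample was left over (0 columns).

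The genes named are the 10 members, the copies ORM2, SAA2, SAA4 and HPR, and in each list up to 4 rises and 4 falls of largest size among genes called at 240 min, with IL6ST, JAK1, CEBPB and ALB, and the 5 genes most like fibrinogen and SOCS3 in log2 CPM plus 0.5. Marker genes and the genes at peaks are named as they stand. A gene had a peak when one overlapped its body extended by 5 kb. Alternatives were DESeq2 1.42.0, RLE scaling, ERCC scaling, dropping the low-count filter, a minimum of 10 counts in all libraries, a model of only the times compared, a replicate block, limma 3.58.1 on TPM in log2 with a pseudocount of 1 or 0.1 or with genes under a mean TPM of 1 removed, each library left out in turn, and, for peaks, 1 kb, 20 kb and scores above the median. The ratio of FGB to FGA was chosen after seeing the data, and counts were its alternative. On simulated data for 240 min against 0 min over 13729 genes, the edgeR test recovered 68% of 100 genes changed by 0.5 and 88% of 100 changed by 1 on the log2 scale, with 10 false among 166 calls. The simulation changed only 200 genes, with rises and falls in equal number, and took its spread from these data. In the data 5676 genes were called at 240 min, so these rates need not hold for them. Peaks, sequences and figures were handled in Python 3.11.15 with pandas 2.3.3, numpy 2.4.6 and matplotlib 3.10.9. Promoters matched by symbol for 8 of the 10 members, not for HP and SAA1. One gene that the naming rule covers is not reported here.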

Additional observations from a re-analysis of the deposited data

Results flagged for a closer look

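IL6R, STAT3 and SOCS3 had an effect at 240 min that differed from their effect at 30 min, by the direct comparison of both times in edgeR. The difference on the log2 scale was -0.47 for IL6R (adjusted p = 0.000477), -0.57 for STAT3 (adjusted p = 2.47e-08) and -1.50 for SOCS3 (adjusted p = 0.000528). Both 240 min libraries lay below the 8 others for each gene, as for 21.3% of all tested genes. With ERCC scaling IL6R stood at -0.46 and did not pass (adjusted p = 0.153), and without replicate 1 of 240 min it stood at -0.31. Both effects share the 0 min libraries, which cancel in this comparison.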

How the results depend on the processing

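The falls of IL6R, STAT3 and SOCS3 at 240 min against 0 min kept their direction and their side of the threshold in every alternative run. Without each library in turn IL6R ran from -0.83 to -0.51, STAT3 from -0.62 to -0.55 and SOCS3 from -1.60 to -1.11. The number of genes called changed with several alternatives. At 5 min it was 0, and 144 with no filter on low counts, 1 with a replicate block, 1 with only the times compared, 2 with ERCC scaling, 1 and 1 by limma on log2(TPM + 1) and log2(TPM + 0.1), 2 by limma with a mean TPM of at least 1, and 0 to 22 without each library. At 10 min it was 19, and 74 with no filter, 40 with only the times compared, 1, 4 and 1 by the same limma fits, and 9 to 24 without each library. At 30 min it was 46, and 160 with no filter, 4 with ERCC scaling, 9, 8 and 8 by limma, and 18 to 53 without each library. At 240 min it was 5676, and 1059 with ERCC scaling and 3893 to 5785 without each library. For 240 min against 30 min it was 5297, and 917 with ERCC scaling and 3947 to 5318 without each library. With ERCC scaling the lists held 0, 0, 3, 5 and 3 calls, and the members with an IR peak were 3 within 20 kb and 0 above the median score. Whether replicate numbers pair the samples was not settled. Over 10 pairs of times, the correlation of deviations ran from -0.19 to 0.16 and was over 0.1 in 3. Such weak values over all genes cannot decide it. The replicate block gave 1 gene at 5 min, 21 at 10 min, 59 at 30 min, 5845 at 240 min and 5477 for 240 min against 30 min, and changed no member's call.

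Values near 0 turned sign. With ERCC scaling ORM1 stood at -0.30 at 10 min, -0.063 at 30 min and -0.014 at 240 min, FGB at -0.031 at 30 min and FGA at 0.0035 between 240 and 30 min. By limma on TPM, with both pseudocounts, HP stood at 0.013 and STAT3 at 0.0026 at 30 min, FGG at 0.018 and ORM2 at 0.011 at 240 min, and HP at -0.033 between 240 and 30 min. Without each library in turn, the 5 min values ran from -0.032 to 0.35 for FGA, -0.028 to 0.32 for FGG, -0.094 to 0.57 for HP and -0.46 to 0.090 for SOCS3. At 10 min they ran from -0.49 to 0.18 for HP, -0.013 to 0.078 for ORM1 and -0.37 to 0.0086 for SOCS3. At 30 min they ran from -0.29 to 0.085 for FGA, -0.087 to 0.30 for FGB, -0.18 to 0.083 for FGG, -0.32 to 0.35 for HP and -0.055 to 0.018 for STAT3. At 240 min they ran from -0.31 to 0.071 for FGA, -0.039 to 0.42 for FGB, -0.20 to 0.13 for FGG, -0.29 to 0.38 for HP, -0.015 to 0.20 for ORM1 and -0.22 to 0.086 for HPR. Between 240 and 30 min they ran from -0.18 to 0.14 for FGA, -0.13 to 0.32 for FGB, -0.15 to 0.18 for FGG, -0.038 to 0.081 for HP and -0.081 to 0.13 for ORM1. The cause was not tested. With 2 libraries a time, these fits do not show which library of a pair is the unusual one. SOCS3, with 14 and 15 reads at 240 min, is limited by depth.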
